A study of Mus musculus with 10 samples.

Results

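The 9 keratin genes described here, Krt5, Krt14, Krt15, Krt1, Krt10, Krt2, Krt77, Krt78 and Krt80, were chosen by name as the keratins of the basal and suprabasal layers of mouse epidermis, out of 17983 genes listed in at least 1 library and 46 keratin genes among them. All 9 were listed in all 10 libraries, and all 9 passed the filter on low values. RNA was sequenced from keratinocytes of the back skin epidermis, which was lifted off the dermis with dispase and dissociated with trypsin. The skin had been rubbed 2 times a day for 3 days with acetone and olive oil mixed 4 to 1, called AOO below, or with water. The libraries are labelled day 5.

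Control mice, whose genotype label reads wild type, gave 3 libraries under AOO and 2 under water. Mice with the genotype Gsdma1KO/KO;Gsdma3fx/fx;K14-Cre, called knockout below, gave 3 libraries under AOO and 2 under water. In these mice the Cre recombinase is driven by the promoter of keratin 14, so the floxed Gsdma3 is deleted in cells in which that promoter is or has been active. The sources used here do not give the age or strain, whether controls carried a floxed allele or Cre, or whether libraries are from separate animals. The p-values then measure the spread between libraries alone, and some of that spread may be technical.

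Keratins are the intermediate filament proteins of epithelia, and a filament is built from pairs of 1 acidic type I and 1 basic type II chain. Dividing keratinocytes of the basal layer make the pair of Krt5 (type II) and Krt14 (type I), and Krt15 (type I) is a further basal keratin that is also used as a marker of the hair follicle bulge. Cells that leave the basal layer switch to Krt1 (type II) and Krt10 (type I), the main pair of the spinous and granular layers. Krt2 is a type II keratin of the upper suprabasal cells that is abundant in ear, tail and sole skin and scarce in the back skin of mice. Krt77, Krt78 and Krt80 are further type II keratins of differentiating epithelia.

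The type I members lie in the keratin cluster on chromosome 11 and the type II members in the cluster on chromosome 15, all on the minus strand (GRCm38, GENCODE M21). Krt14 spans chr11:100203162-100207548, Krt15 chr11:100131758-100135928 and Krt10 chr11:99385254-99389364. Krt5 spans chr15:101707070-101712898, Krt2 chr15:101810689-101818169, Krt1 chr15:101845426-101850794 and Krt77 chr15:101858731-101869705. Krt78 spans chr15:101946001-101954287 and Krt80 chr15:101347444-101370162. Each value below sums reads over the gene, and the strand setting of the counting is not given in the sources used here, so reads from a gene and from any antisense partner cannot be told apart.

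Because keratins are close copies of each other, each member's principal transcript (GENCODE M21) was compared with the transcripts of all other genes in windows of 75 bases. In 7 of the 9 members no window was shared with another gene. In Krt5, 110 of 2123 windows (5.18%) were shared with any of 4 other genes, 100 of them with Krt6a, a keratin of activated and follicular keratinocytes. In Krt14, 96 of 1624 windows (5.91%) were shared, all with Krt16, a type I keratin of stressed epidermis. Reads from shared stretches could be counted for either gene or for neither, which leaves some uncertainty in the levels of Krt5 and Krt14. The share of windows does not measure its size, which was not tested. The longest run shared by Krt14 and Krt16 is shown as an example. Capitals mark the identical run, which is 134 bases long, and the lower-case flanks on either side show where the copies part.
Krt14: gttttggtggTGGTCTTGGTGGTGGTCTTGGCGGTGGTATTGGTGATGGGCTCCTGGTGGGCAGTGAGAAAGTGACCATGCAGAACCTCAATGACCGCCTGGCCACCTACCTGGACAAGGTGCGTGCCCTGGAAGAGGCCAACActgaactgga
Krt16: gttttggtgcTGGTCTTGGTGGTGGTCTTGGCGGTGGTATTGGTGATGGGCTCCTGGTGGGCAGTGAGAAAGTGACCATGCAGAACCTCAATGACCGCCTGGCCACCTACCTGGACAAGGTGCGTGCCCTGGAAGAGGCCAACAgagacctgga

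Upstream sequence was available for 6 of the 9 members, taken as the 250 bases before the RefSeq start (GRCm38.p6), read on the gene's own strand. Krt10 (chr11:99389365-99389614) and Krt77 (chr15:101869706-101869955) are shown, as the suprabasal keratins with the highest mean levels per kilobase besides Krt1. Capitals mark every match, on either strand, to a TATA box (TATANA), a KLF motif (CACCC), an AP-1 motif (TGANTCA), an AP-2 motif (GCCNNNGGC) or a CEBP motif (TTNCGNAA), and neighbouring matches run together. In Krt10 the TATA box matches began 28 and 26 bases before the start, and 1 KLF match began 213 bases before it. In Krt77 the 3 overlapping TATA box matches began 32, 30 and 28 bases before the start. These letters occur in many promoters of the same length, the TATA box in 22.6% of 32851, KLF in 52.0%, AP-1 in 6.75%, AP-2 in 13.7% and CEBP in 2.04%. A match is a description of the letters and does not show that a factor binds there.
Krt10: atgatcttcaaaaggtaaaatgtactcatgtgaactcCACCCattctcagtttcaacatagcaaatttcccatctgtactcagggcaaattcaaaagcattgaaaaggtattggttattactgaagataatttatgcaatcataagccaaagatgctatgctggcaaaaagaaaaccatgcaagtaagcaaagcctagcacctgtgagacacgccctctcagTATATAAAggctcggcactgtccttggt
Krt77: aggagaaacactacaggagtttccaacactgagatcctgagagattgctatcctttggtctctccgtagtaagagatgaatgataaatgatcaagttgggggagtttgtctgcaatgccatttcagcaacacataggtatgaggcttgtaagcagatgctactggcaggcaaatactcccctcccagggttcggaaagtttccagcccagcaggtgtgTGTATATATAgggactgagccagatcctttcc

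Library depth ran from 15914663 to 21812292 reads, of which the 9 keratins took 3.95% to 6.19%, so counting error was small against the spread between libraries for every member but Krt2. Gsdma3 had 63.1 to 283 normalised read counts in the 5 control libraries and at most 2.64 in the 5 knockout libraries. The gene annotated as Gsdma had 199 to 733 in control and 170.1 to 846 in knockout libraries, which overlap, and whether its reads come from outside the deleted part was not tested. The 4 Y-linked genes summed to 3583 to 4967 in the 6 AOO libraries and were all at 0 in the 4 water libraries. The AOO libraries thus hold male RNA and the water libraries show none. Treatment and sex therefore cannot be told apart in any comparison of AOO with water below. Hair shaft and inner root sheath markers, of which 14 of 19 were tested, summed to 12571 in control water replicate 2 and to 3207 in knockout AOO replicate 2, against 465 to 1287 in the other 8 libraries. At most 2 of these markers were at 0 in any library. All 6 keratinocyte markers, some of them members, were above 0 in every library. In bulk RNA, fewer cells of a type and less RNA per cell cannot be told apart.

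Krt5 and Krt14 had the highest levels, and Krt2 was almost silent. Per kilobase of principal transcript, the mean over the 10 libraries was 132491 normalised counts for Krt5, 131065 for Krt14, 73906 for Krt10, 38335 for Krt1, 31996 for Krt15, 26877 for Krt77, 3631 for Krt80, 398 for Krt78 and 5.73 for Krt2. The ranges over libraries overlapped between neighbours among the first 6 of this order, and did not overlap between neighbours from Krt77 downward. Krt1 ranked 6 of 9 in all 4 water libraries and 3 or 4 in the 6 AOO libraries. Krt5 ranked 1 in all 4 water libraries and 1 to 4 under AOO. The share of Krt1 in the summed per-kilobase level of the 9 keratins was 3.45% to 4.81% under water and 6.21% to 19.2% under AOO. Between the lowest and the highest library, Krt1 differed 7.09-fold, Krt77 3.58-fold, Krt80 3.23-fold and Krt5 1.88-fold.

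**Figure D1:**
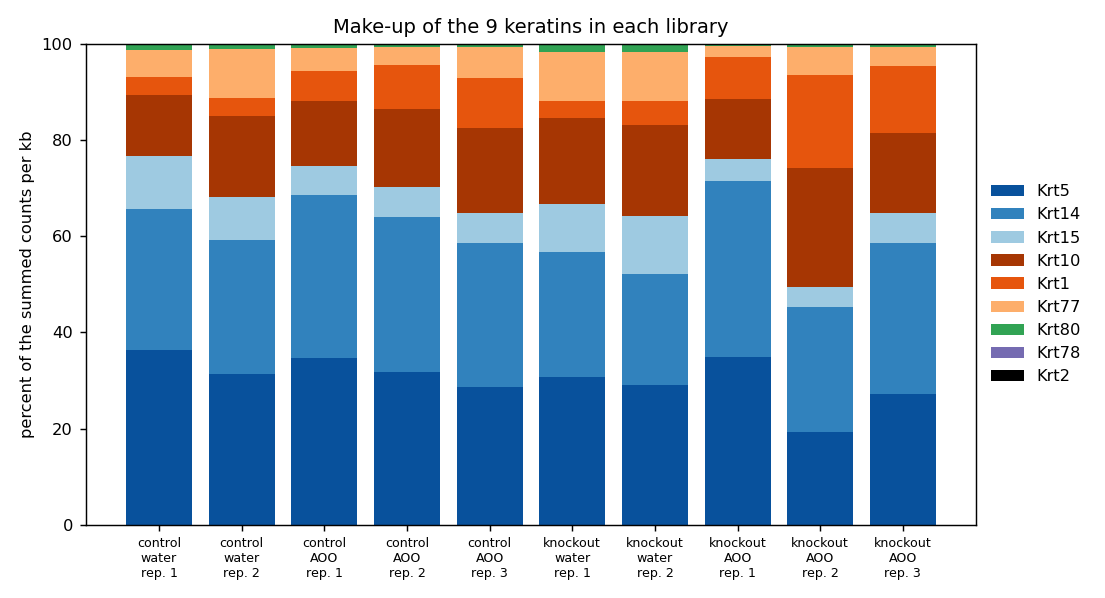
Share of each keratin in the summed counts per kilobase of the 9 keratins (percent, y axis) in each of the 10 libraries (x axis), as stacked bars. The Krt1 band takes 3.45% to 4.81% in the 4 water libraries and 6.21% to 19.2% in the 6 AOO libraries.

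The first comparison asked how the basal keratins differed between AOO and water. Averaged over the genotypes, Krt15 fell under AOO, and it was the only 1 of the 3 to pass the test, which 12.8% of all genes passed. Krt14 and Krt5 had positive differences that did not pass. Krt14 had 258829, 261520 and 281110 normalised counts in the control AOO libraries against 182890 and 168237 under water. Knockout libraries had 320163, 221299 and 200052 under AOO against 174876 and 156510 under water. All 6 AOO libraries lay above all 4 water libraries, as for 4.49% of all genes. The difference was 0.58 ± 0.18 (SE) on the log2(value + 1) scale, averaged over the genotypes, with an adjusted p of 0.0611 in limma. edgeR gave 0.0372 and DESeq2 0.00216 on the recovered reads, so this call depended on the tool. Without 1 library, limma gave 0.0454 to 0.184, the lowest without knockout AOO replicate 1.

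Krt15 had 45855, 51181 and 57487 normalised counts in control AOO libraries and 69302 and 54650 under water, which overlap. Knockout libraries had 41233, 36467 and 40048 under AOO and 67777 and 79928 under water, with no overlap. Krt15 fell by 0.91 ± 0.19 on the log2 scale in the knockout (limma adjusted p = 0.0219), a call lost without knockout AOO replicate 2 or 3 (0.0764 and 0.0611). The call was also lost without knockout water replicate 1 or 2, with differences of -1.03 and -0.79. Those fits leave 1 library in the group, and they called far fewer genes over all genes too. In control mice the difference was -0.26 ± 0.19 (adjusted p = 0.594). Averaged over the genotypes Krt15 fell by 0.59 ± 0.14 (adjusted p = 0.0284). That averaged call was lost in 6 of 10 fits that left out a library. The limma adjusted p was 0.0763 without control AOO replicate 2, and 0.0672 and 0.0519 without knockout AOO replicate 2 and 3. The others left out control water replicate 1 or knockout water replicate 1 or 2, with differences of -0.50, -0.65 and -0.53. They leave 1 library in a group, and they called far fewer genes over all genes too.

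Krt5 had 344169, 331026 and 345449 normalised counts in control AOO libraries against 294225 and 245131 under water. The knockout values were 396203, 211026 and 224360 under AOO, a wider spread than in any other group, against 267054 and 252184 under water. The averaged log2 difference was 0.19 ± 0.22 (limma adjusted p = 0.556).

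**Figure D2:**
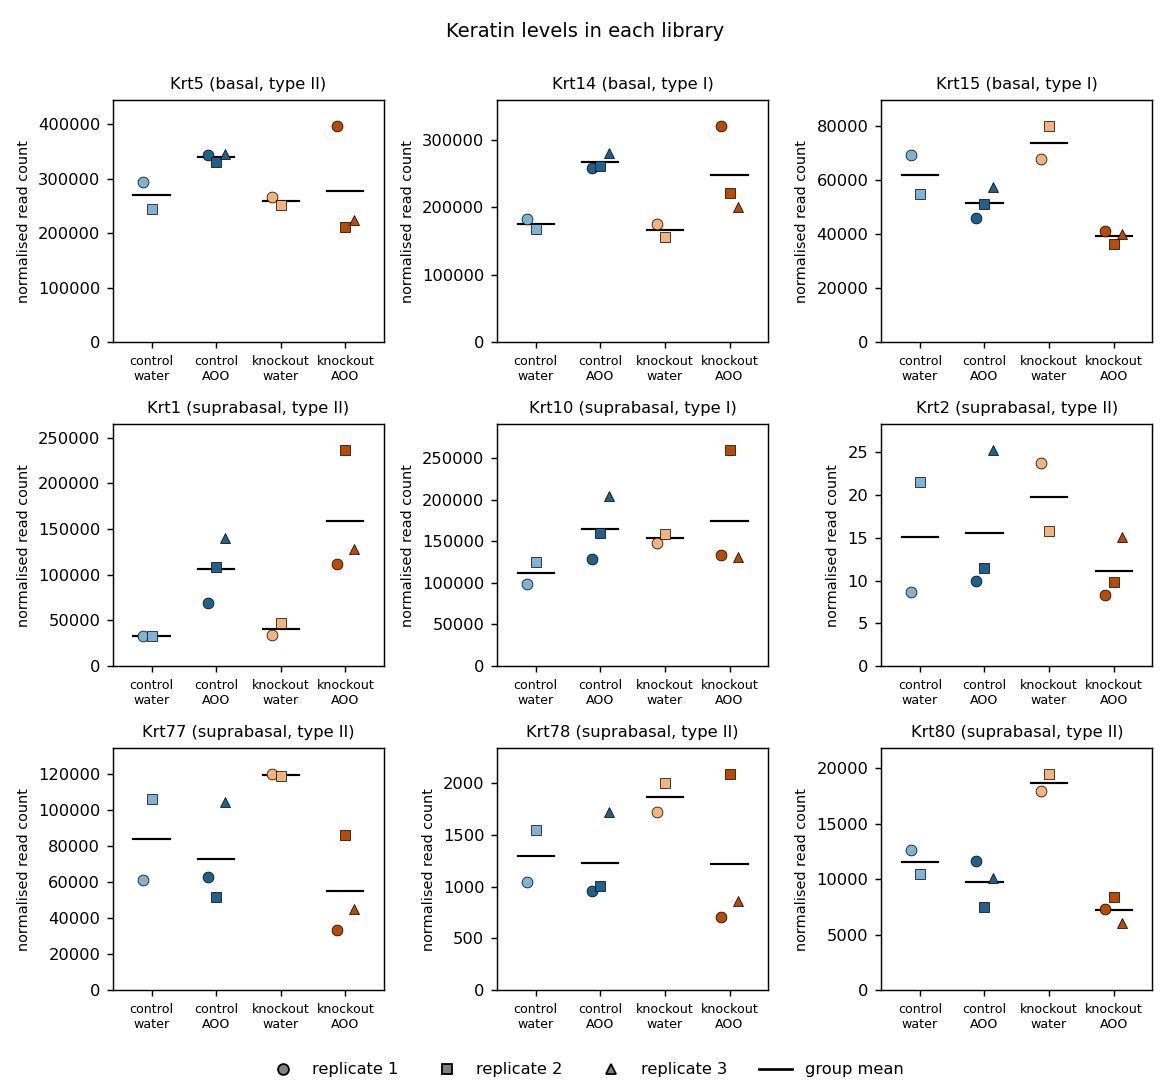
Normalised read counts (y axis, linear from 0, a scale of its own in each panel) of the 9 keratins in 4 groups (x axis), with a symbol for each replicate and a bar at the group mean. The 6 AOO libraries of Krt1 sit between 68786 and 236226, all above the 4 water libraries at 33309 to 46745.

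Among the suprabasal keratins, Krt1 and Krt80 moved in opposite directions under AOO. Krt1 had 68786, 108861 and 140066 normalised counts in control AOO libraries against 33441 and 33309 under water. In the knockout it had 111680, 236226 and 128422 under AOO against 33582 and 46745 under water. No AOO library overlapped a water library in either genotype. Krt1 rose 3.40-fold averaged over the genotypes, by 1.76 ± 0.26 on the log2 scale (limma adjusted p = 0.00563), and this call held in all 10 fits without 1 library (adjusted p 0.00305 to 0.0460). It rose 3.79-fold in the knockout (1.92 ± 0.37, adjusted p = 0.0164). There the call was lost without knockout water replicate 1 or 2, with differences of 1.68 and 2.16. In those fits the group holds 1 library, and calls fell over all genes too. In control mice the value was 3.04-fold (1.61 ± 0.37), and with an adjusted p of 0.164 it was not called. Without control AOO replicate 1, the lowest AOO library for Krt1, the control difference was 1.88 with an adjusted p of 0.0344. That fit called more genes over all genes too, 470 against 10 in the main fit.

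Krt80, a type II keratin of differentiating epithelial cells, had 11606, 7468 and 10105 normalised counts in control AOO libraries against 12617 and 10494 under water, which overlap. The knockout values were 7270, 8407 and 6027 under AOO against 17902 and 19465 under water, with a wide gap between the groups. Krt80 fell by 1.38 ± 0.21 on the log2 scale in the knockout (limma adjusted p = 0.0104). That call was lost without knockout water replicate 1 or 2, with differences of -1.44 and -1.32. Averaged over the genotypes it fell by 0.82 ± 0.15 (adjusted p = 0.0131). The averaged call was lost without control water replicate 1 or knockout water replicate 1 or 2, with differences of -0.76, -0.86 and -0.80. All of these fits, in the knockout and in the average, leave 1 library in a group, and calls fell over all genes too.

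Krt10, the partner of Krt1, had a smaller difference that was not called. It had 128651, 160085 and 204819 normalised counts in control AOO libraries against 98708 and 125150 under water, and 133383, 259311 and 130776 in knockout AOO libraries against 148074 and 158638 under water. The control groups did not overlap and the knockout groups did. The averaged log2 difference was 0.32 ± 0.24 (limma adjusted p = 0.341).

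Krt77 had 62521, 51611 and 104216 normalised counts in control AOO libraries and 61043 and 105914 under water. In the knockout it had 33466, 86110 and 44674 under AOO against 119711 and 118509 under water. The knockout groups did not overlap, and the log2 difference of -1.24 ± 0.42 did not pass the test (limma adjusted p = 0.0686). Krt78 ran from 704 to 2090 normalised counts and had an averaged log2 difference of -0.44 ± 0.29 (adjusted p = 0.302). Krt2 ran from 8.28 to 25.3 normalised counts, at which level counting error is a large part of its spread, and its averaged log2 difference was -0.37 ± 0.39 (adjusted p = 0.515).

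**Figure D3:**
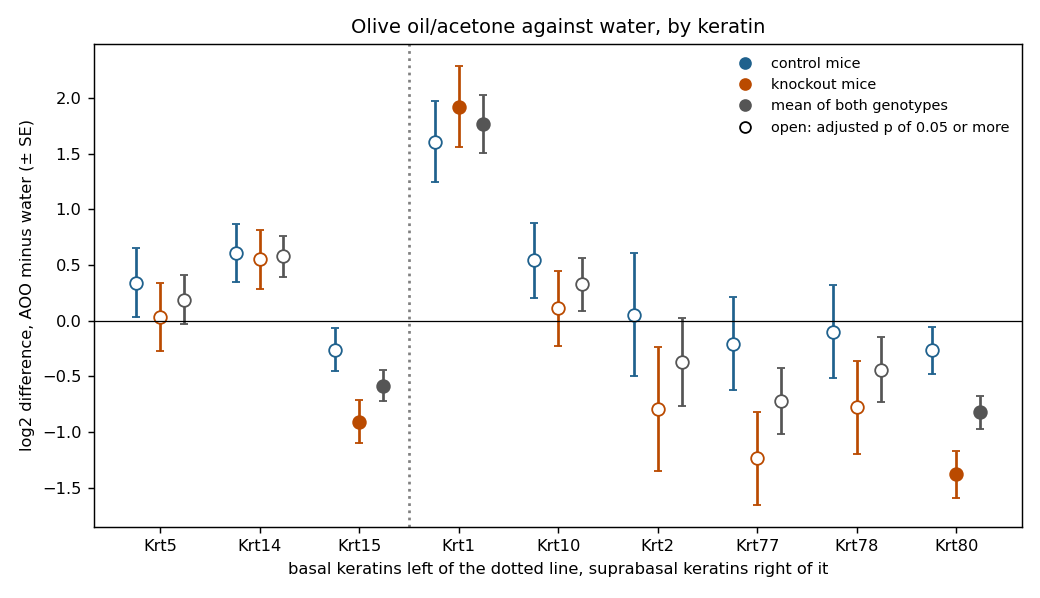
Log2 difference, AOO minus water (y axis, ± SE), for each keratin (x axis) in control mice, in knockout mice and averaged over both, with filled points where the limma adjusted p was under 0.05. Filled points appear for Krt1 above 0 and for Krt15 and Krt80 below 0, in the knockout and in the average only.

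As a set, 3 of the 9 keratins were called in the knockout, where 13.4% of all 15958 genes tested were called. Of these, 1 rose and 2 fell, against 6.74% and 6.69% of all genes. edgeR called 3 there (12.1% of all genes), and DESeq2 called 5 (22.7% of all genes), adding Krt14 and Krt77. In the average over the genotypes the same 3 genes, Krt1, Krt15 and Krt80, were called, where 12.8% of all genes were called. edgeR and DESeq2 each called these and Krt14 (12.5% and 23.0% of all genes). In control mice 0 of 9 were called by limma, where 0.0627% of all genes were called. At an unadjusted p under 0.05, 2 of 9 passed there (12.9% of all genes), edgeR called 0 (0.0439% of all genes) and DESeq2 called 1, Krt1 (2.22% of all genes). The median log2 difference of the 9 was 0.05 in control and -0.78 in knockout mice, against 0.00 and 0.01 over all genes tested. In control mice the groups did not overlap for 4 keratins, all higher under AOO (12.2% of all genes were so), and in the knockout for 2 higher and 4 lower (28.8% and 29.2% of all genes). Over both genotypes together, Krt1 and Krt14 were higher in all 6 AOO libraries than in all 4 water libraries, as were 4.49% of all genes.

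Ratios within a library do not depend on its scaling, and they were taken per kilobase. They were chosen with these values in view, so they are given with no test. The sum of the basal keratins over the sum of the suprabasal keratins was 2.93, 2.37 and 1.84 in control AOO libraries and 3.28 and 2.14 under water. In the knockout it was 3.19, 0.980 and 1.84 under AOO and 2.01 and 1.79 under water. The groups overlapped in every comparison of AOO with water, and knockout AOO replicate 2 was the only library with less basal than suprabasal keratin RNA. It was also the AOO library with the most hair shaft marker RNA, whose part in the ratio was not tested. On the log2 scale the group means were 1.22 ± 0.34 (SD, n = 3), 1.41 ± 0.44 (n = 2), 0.84 ± 0.85 (n = 3) and 0.92 ± 0.12 (n = 2) in the same order. Leaving out 1 library moved the knockout AOO mean between 0.43, without replicate 1, and 1.28, without replicate 2, and the control water mean between 1.10 and 1.72.

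The ratio of Krt14 to Krt10, type I keratins of the 2 layers, behaved like the sums, with 1.69 to 2.48 in control AOO libraries, 2.28 and 1.66 in control water, 1.05 to 2.96 in knockout AOO and 1.22 and 1.46 in knockout water libraries. The ratio of Krt5 to Krt1, type II keratins of the 2 layers, differed more. It was 0.998 to 5.59 in the 6 AOO libraries and 6.03 to 9.83 in the 4 water libraries, with no overlap.

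Some ratios within a layer separated the treatments. Among the suprabasal members 7 of 15 pairs did not overlap between AOO and water libraries, 5 of them with Krt1, and 8 overlapped. No overlap was found for 9.49% of all gene pairs with a mean value of 50 or more. Krt2 lies below that level, and its pair with Krt1 is among the 7. Krt1 to Krt10, the suprabasal pair, was 0.456, 0.580 and 0.583 in control AOO and 0.714, 0.777 and 0.838 in knockout AOO libraries. Under water it was 0.289 and 0.227 in control and 0.193 and 0.251 in knockout libraries. All AOO libraries lay above all water libraries. The 3 knockout AOO libraries lay above the 3 control AOO libraries for this ratio. Of the 36 pairs of members, 5 did not overlap between these genotype groups, all with Krt1. The share was 17.6% over all gene pairs with a mean value of 50 or more. Krt1 to Krt77, type II genes that neighbour each other in the annotation, was 1.31 to 2.52 in control AOO, 3.28 to 3.98 in knockout AOO and 0.335 to 0.654 in water libraries. Krt1 and Krt77 summed over Krt10 overlapped, at 0.803 to 1.08 under AOO and 0.731 to 0.832 under water, and so did Krt77 to Krt80, at 4.82 to 10.8 and 5.06 to 10.6.

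In the basal layer all 3 pairs were separated. Krt15 to Krt14 was 0.129 to 0.204 in the 6 AOO libraries and 0.324 to 0.510 in the 4 water libraries. Krt5 to Krt14, the basal pair, was 0.737 to 1.03 under AOO and 1.13 to 1.25 under water. Of the 36 pairs of members, 15 had ratios that did not overlap between the 6 AOO and 4 water libraries, and Krt1 was in 7 of them. Of all pairs of genes with a mean value of 50 or more, 9.49% did not overlap. Krt2, which lies below that level, was in 1 of the 15. The 36 pairs are built from the same 9 genes, so they are not independent of each other.

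**Figure D4:**
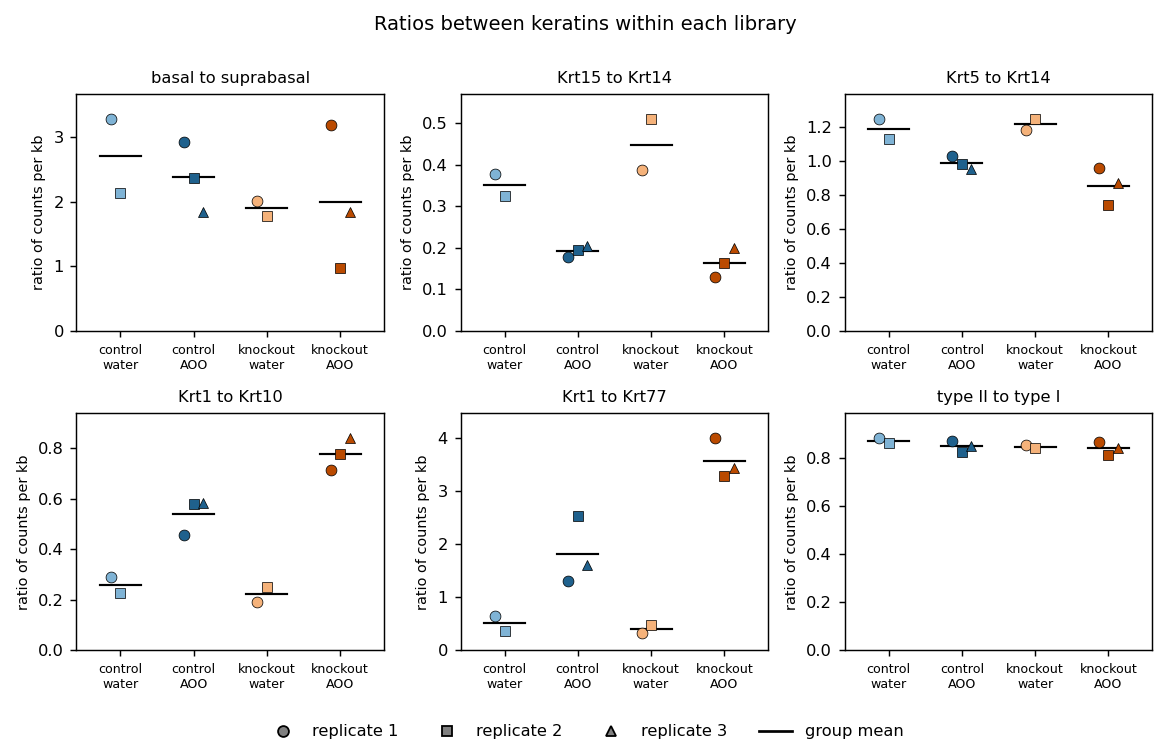
Ratios between keratins per kilobase (y axis, linear from 0) in the 4 groups (x axis), with a symbol for each replicate and a bar at the group mean. Krt1 to Krt10 lies at 0.456 to 0.838 under AOO and 0.193 to 0.289 under water, and type II to type I stays between 0.816 and 0.883 in all 10 libraries.

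Krt5 and Krt14, with the highest levels, differed 1.88-fold and 2.05-fold between libraries, and Krt1 differed most, 7.09-fold. The sum of the 6 type II members over the sum of the 3 type I members stayed between 0.816 and 0.883, a 1.08-fold range. This ratio was looked at after the values were seen, and how narrow such a ratio is for other genes of this level was not tested. It spanned 1.09-fold without division by length and 1.29-fold per kilobase of all exons joined, where Krt1 and Krt80 are much longer. Without Krt5 the range was 2.35-fold, without Krt14 1.85-fold and without Krt1 1.74-fold. Within the suprabasal members alone it was 1.35-fold, and over all keratins tested, per kilobase of all exons joined, it was 1.30-fold. The narrow range thus depended on the more abundant members, and it was wider with the lengths of all exons joined.

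The second question was whether the knockout changed these keratins under the same treatment. No keratin was called by limma under AOO or under water, where 0% of all genes were called in either comparison. Under AOO, 1 keratin passed an unadjusted p of 0.05 (12.0% of all genes), and under water 1 did (4.98% of all genes). edgeR and DESeq2 called 0 of 9 in both comparisons. Over all genes edgeR called 0%, and DESeq2 1.05% under AOO and 0.0376% under water. Under AOO, 7 of 9 had a lower mean log2 value in the knockout, with a median difference of -0.36 against 0.02 over all genes. Krt15 was the only one without overlap, at 45855 to 57487 in control and 36467 to 41233 in knockout libraries (log2 difference -0.39 ± 0.17, limma adjusted p = 0.415), as were 8.23% of all genes lower in the knockout. Krt1 had the largest positive value, 0.56 ± 0.33 (adjusted p = 0.507).

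Under water, 7 of 9 had a higher mean log2 value in the knockout, with a median of 0.46 against -0.01 over all genes. Krt1, Krt10, Krt77, Krt78 and Krt80 were higher in both knockout libraries than in both control libraries, as were 16.9% of all genes. For Krt1 the groups almost touched, with 33582 in the lower knockout and 33441 in the higher control library. Krt80 had the largest value, 0.70 ± 0.23 (limma adjusted p = 0.963, unadjusted 0.0124). Krt5 and Krt14 differed by -0.05 ± 0.34 and -0.08 ± 0.29. Control water replicate 2, which carried the hair shaft markers, is 1 of only 2 libraries on the control side, and the part of that RNA in these values was not tested.

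The interaction tested whether the response to AOO differed between genotypes, and 0 of 9 keratins and 0% of all genes were called by limma. At an unadjusted p under 0.05, 2 keratins passed, Krt80 and Krt15, as did 11.9% of all genes. edgeR called 0 of 9 and DESeq2 called 1 (1.23% of all genes). Krt80 had a difference of responses of -1.11 ± 0.30 on the log2 scale (limma adjusted p = 0.356, DESeq2 adjusted p = 0.0497). For Krt77 it was -1.03 ± 0.59 (limma adjusted p = 0.478), for Krt15 -0.65 ± 0.27 (0.404) and for Krt1 0.32 ± 0.52 (0.805). The responses of Krt15, Krt77 and Krt80 that were larger in the knockout are therefore not shown to differ from those in control mice.

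Genes around these keratins in the epidermal programme were counted from lists of known roles. Of 22 spinous and granular differentiation genes, 9 rose and 0 fell under AOO averaged over the genotypes (6.88% of all genes rose and 5.92% fell), with a median log2 difference of 0.85 against -0.02 over all genes tested. Flg, which encodes the granular protein filaggrin, rose by 3.78 ± 0.41 (limma adjusted p = 0.0016). Tgm3, a transglutaminase that cross-links cornified envelope proteins, rose by 2.01 ± 0.20 (adjusted p = 0.0014). Of the 6 suprabasal keratins, 1 rose and 1 fell in the same fit.

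Of 16 basal and adhesion genes, 1 rose and 2 fell in the average, where 6.88% of all genes rose and 5.92% fell. Postn, a matrix protein, rose by 1.29 ± 0.20 (adjusted p = 0.0075). Igfbp3, which binds insulin-like growth factors, fell by 1.43 ± 0.35 (adjusted p = 0.0318), with means of 30316 and 34433 in control AOO and control water and 10340 and 59928 in knockout AOO and knockout water libraries. In the knockout alone 0 rose and 4 fell, where 6.74% of all genes rose and 6.69% fell. Of 26 regulators of stratification, 1 rose and 3 fell in the average, against 6.88% and 5.92% of all genes, and 1 rose and 8 fell in the knockout. Those called in the average included the transcription factor gene Maf (0.51 ± 0.13, adjusted p = 0.0337) and the kinase gene Ripk4 (-0.47 ± 0.12, adjusted p = 0.0353). Of 10 genes of the desmosome and of the plaque that anchors keratin, 0 rose and 1 fell in the average, again against 6.88% and 5.92% of all genes. The 1 that fell was the plakin gene Ppl (-0.58 ± 0.15, adjusted p = 0.0379). Dsc2, a desmosomal cadherin, had -0.35 ± 0.17 (adjusted p = 0.169).

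Of the 37 other keratin genes, 28 were tested, and 4 rose and 3 fell in the average, against 6.88% and 5.92% of all genes. In the knockout 5 rose and 1 fell, against 6.74% and 6.69% of all genes. The stress keratins Krt6a and Krt6b rose by 1.49 ± 0.35 (limma adjusted p = 0.0288) and 4.50 ± 1.01 (0.0254), while the other members of that list, Krt16 and Krt17, had 0.17 and 0.26 and were not called. In the knockout Krt6a and Krt6b rose by 2.72 and 7.99 (limma adjusted p = 0.0154 and 0.0147), and in control mice their differences were 0.26 and 1.02 (0.855 and 0.794). The simple epithelial keratins Krt19 and Krt8 fell in the average, with log2 differences of -3.67 ± 0.76 (0.0196) and -2.78 ± 0.71 (0.0353). Neither was called within a genotype (limma adjusted p 0.0677 to 0.284). Group means of Krt19 and Krt8 were at most 164 normalised counts. The other members of that list, Krt18 and Krt7, had -2.74 and -0.33 and were not called (limma adjusted p = 0.0739 and 0.523). Outer root sheath and bulge markers, all 8 tested, summed to 38967 to 59169 in control AOO and 21144 and 36804 in control water libraries. In the knockout they summed to 61572 to 118266 under AOO, with replicate 2 highest, and to 31408 and 35501 under water. Krt79 and Postn had the largest values of the 8 in every library, with Krt79 at 99275 in knockout AOO replicate 2. Of the 8 markers, 5 had a positive difference in the average and 3 were called higher, as were 6.88% of all genes. Lgr5 had 186 to 268 in knockout AOO and 372 and 355 in knockout water libraries. Proliferation markers, all 11 tested, summed to 11695 to 20966 under AOO and 6152 to 11137 under water. Red blood cell markers, all 5 tested, summed to 4427 to 27549 under AOO and 1176 to 6497 under water. The part of these cells in the keratin differences was not tested.

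The genes whose log2 values followed single keratins most closely over the 10 libraries were found among 11422 genes with a mean value of 50 or more. The libraries share their groups and depth, so these correlations are a description only. Krt14 was followed by Serpinb6a (Pearson r = 0.958, Spearman rho = 0.879), Impa2 (0.954, 0.939) and Fam171a2 (0.954, 0.903). Krt10 was followed by Cldn23 (0.977, 0.927) and Rps6ka6 (0.949, 0.782), and Krt2, at its low level, by Egr1 (0.867, 0.855), Tmem167b (0.858, 0.855) and Bcl9 (0.853, 0.891). For the keratins that were called, looked at after their values were seen, the closest were Cbr3 for Krt1 (0.977, 0.927), Phactr2 for Krt15 (0.982, 0.988) and Llgl2 for Krt80 (0.986, 0.976).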

How the data were processed

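The deposited values are a normalised read signal for each gene, in a separate file for each library. The submitters' processing notes name Trimmomatic 0.38, featureCounts 2.0.0 and DESeq2 1.26.0, with the build GRCm38 (mm10). Which aligner, annotation release and strand setting the authors used is not given in the sources used here. Dividing by the value of 1 read gave whole reads for 100% of values (tolerance 0.1). Identifiers were matched to GENCODE M21.

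The members and lists were chosen with earlier results of these data known. Values were scaled by median of ratios (factors 0.995 to 1.004) over 15987 genes listed in all libraries, and 15958 genes with at least 2 values of 10 or more were kept. log2(value + 1) was fitted with limma 3.58.1 (R 4.3.3), as 4 group means over all 10 libraries, with two-sided tests and Benjamini-Hochberg adjustment over all genes. A call is an adjusted p under 0.05. Differences on this scale understate the change of low genes. edgeR 4.0.16 and DESeq2 1.42.0 on the recovered reads, other scalings, filters, pseudocounts and lengths, a replicate block and leave-one-out fits were alternatives. The choice of type II to type I ratios and the exon lengths were added after the data were seen. The named genes are all members, the 3 genes closest to each of Krt14, Krt10 and Krt2, and the 2 genes of each list with the lowest p in the average; others are said to be chosen later, and 1 of the genes closest to Krt10 is not reported here. The limma step was tested on simulated data.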

Additional observations from a re-analysis of the deposited data

How the results depend on the processing

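Of 1092 values of the 54 keratin differences under the alternatives, 1036 kept their direction and side of the threshold, 17 lost a call, 13 gained one and 26, none of them called, changed sign. Where no cause is named, it was not tested. With DESeq2 the number of keratins called was 1 in control mice, 5 in the knockout and 1 in the interaction. Leaving out 1 library gave 0 to 1 in control mice (1 without control AOO replicate 1), 0 to 3 in the knockout (0 without either knockout water library) and 1 to 4 in the average (1 without control water replicate 1 or either knockout water library). The labels do not say what a replicate number marks. Of 13 same-numbered pairs, 6 had a correlation of deviations over 0.1, and 7 of 10 libraries correlated best with one of their own number. In a group of 2 libraries the deviations mirror each other, so these counts are not independent and cannot decide on pairing. Correlations ran from -0.157 to 0.547 for same-numbered pairs and from -0.547 to 0.446 for the others. The highest joined control water replicate 2 and knockout AOO replicate 2, the libraries with the most hair shaft marker RNA. The fit with the replicate block also called Krt77 in the knockout (limma adjusted p = 0.0452, against 0.0686 in the main fit), and turned Krt2 in control mice to -0.25. In the average it called the same keratins as the main fit. The share of all genes called with the block is not given here. The log2 ratio of basal to suprabasal keratins in knockout water libraries, 0.92, was 0.58 without division by length, 1.27 as Krt5 and Krt14 over Krt1 and Krt10, and 0.66 without Krt15. The other sign changes came from low or small differences. In control mice, leaving out 1 library moved Krt2 from -0.56 to 0.67, Krt77 from -0.61 to 0.19 and Krt78 from -0.39 to 0.19. In the knockout it moved Krt5 from -0.26 to 0.20 and Krt10 from -0.21 to 0.28. For genotype under AOO it moved Krt10 from -0.29 to 0.21, Krt2 from -0.62 to 0.013 and Krt78 from -0.61 to 0.18, and under water Krt5 from -0.18 to 0.076 and Krt2 from -0.15 to 1.08. In the interaction it moved Krt1 from -0.011 to 0.56 and Krt14 from -0.26 to 0.079, and Krt14 was 0.10 with equal totals and 0.000224 in edgeR. Depth limits Krt2, at 8.28 to 25.3 normalised counts.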
